A study of Mus musculus with 6 samples.

Results

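Cytosolic ribosomal proteins are the protein part of the ribosome that translates nuclear mRNAs. Their genes were followed in the colon of mice lacking HDAC2, a histone deacetylase, in the intestinal epithelium and in the colon of control mice. A probe set, a group of short array probes read out as 1 value, was taken where the platform annotation gave it a single gene symbol made of Rpl, Rplp or Rps with a number and at most a short paralog ending. Symbols ending in -ps, which mark pseudogenes, and the Rps6k kinases were left out. The rule chose 103 of 45037 probe sets without array controls and 48 of the 18193 genes with a probe set of 1 symbol. Of these, 26 genes with 48 probe sets encode large subunit proteins and 22 genes with 55 probe sets encode small subunit proteins. RefSeq lists 84 protein-coding genes whose symbols follow the same rule, so the measured genes are a part of the ribosome. A further 110 probe sets name such a gene together with other genes, mostly pseudogenes, and 29 genes, among them Rplp1, Rpl3, Rpl5 and Rpl10, were covered by such probe sets alone. These were not members and are described apart.

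The HDAC2 KO group held 3 mice with floxed Hdac2 alleles deleted by a villin-Cre transgene, and the control group held 3 mice. The villin promoter drives Cre in the intestinal epithelium and leaves Hdac2 intact in other cells of the colon. All mice had a mixed CD-1/129/C57BL/6 background, ate a normal diet and were untreated, and age, sex and the genotype of the controls at the floxed allele are not given in the labels. The title and genotype labels of the deleted group name HDAC2, whereas its description names HDAC1/2. The source label names epithelium, whereas the extraction protocol speaks of the colon. The source labels give each array a mouse number of its own. Values are log2 signals after RMA, the authors' background correction, quantile normalization and summary of probes.

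The cytosolic ribosome has a small subunit, which binds the mRNA and decodes it, and a large subunit, which joins amino acids and releases the growing chain through an exit tunnel. Most ribosomal proteins are single-copy parts of a fixed complex, are made in matched amounts and are degraded when unassembled. Their mRNAs are among the most abundant of dividing cells, and in mammals they start with a C followed by a run of pyrimidines, the TOP motif, through which mTORC1 signalling controls their translation. A few members have paralogs that are used in certain tissues or act in ribosome assembly instead of translation.

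The start of these transcripts is shown for the members on which the results turn, for both stalk proteins and for the members with the longest runs. The windows are RefSeq promoters of assembly GRCm38.p6 read along the transcribed strand, 10 bases before the annotated start and 20 from it. Capitals mark an unbroken run of at least 6 C or T bases within 10 bases on either side of the start, and where there is no such run the sequence is in lower case.
Rpl7l1, chr17:46782637-46782666, minus strand: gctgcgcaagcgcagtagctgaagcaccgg
Rps25, chr9:44407704-44407733, plus strand: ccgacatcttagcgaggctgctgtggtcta
Rps9, chr7:3704031-3704060, plus strand: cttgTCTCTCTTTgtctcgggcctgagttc
Rps24, chr14:24490668-24490697, plus strand: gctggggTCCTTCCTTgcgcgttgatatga
Rps18, chr17:33955646-33955675, minus strand: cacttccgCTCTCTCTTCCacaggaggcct
Rps6, chr4:86857348-86857377, minus strand: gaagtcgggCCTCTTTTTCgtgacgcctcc
Rplp0, chr5:115559457-115559486, plus strand: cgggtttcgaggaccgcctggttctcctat
Rplp2, chr7:141447641-141447670, plus strand: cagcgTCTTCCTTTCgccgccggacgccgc
Rpl35, chr2:39005112-39005141, minus strand: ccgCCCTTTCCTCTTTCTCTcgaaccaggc
Rpl7a, chr2:26910797-26910826, plus strand: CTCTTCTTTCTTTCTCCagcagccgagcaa
Such a run was present at 23 of 50 annotated starts of the 42 member genes found in the table (46%), against 6631 of 32851 starts of all genes (20.2%). No such run lay within 10 bases of the starts of Rpl7l1, Rps25 and Rplp0, while 17 bases in a row were pyrimidines at the starts of Rpl35 and Rpl7a. The Rplp0 window also holds a pyrimidine run farther from the start, which is not marked.

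The members' changes were small beside those of the transcriptome. Hdac2, the targeted gene, read 10.21, 10.12 and 10.24 in HDAC2 KO and 10.40, 10.37 and 10.43 in control, a difference of -0.21 (SE 0.040, limma adjusted p = 0.00893). With all probe sets tested singly, the same probe set had an adjusted p of 0.0768, and without probe types s, x and a another one had a difference of -0.22 (adjusted p = 0.0957). Hdac1, which the description label also names, read 10.47, 10.41 and 10.52 in HDAC2 KO and 10.35, 10.29 and 10.31 in control, a difference of 0.15 (SE 0.039, adjusted p = 0.0321), and its call was kept when HDAC2 KO replicate 2 was dropped and lost when any of the other 5 arrays was (0.0673 to 0.109). In all, 1952 of 10916 genes (17.9%) were called at a limma adjusted p under 0.05, 1057 higher (9.68%) and 895 lower (8.20%). The array of HDAC2 KO replicate 2 deviated most from its group, by 0.080 as a root mean square over genes against 0.042 to 0.066 on the other 5 arrays. Whether the arrays come from animals of 1 sex is not given, and Xist, transcribed from the inactive X chromosome, and Kdm5d, on the Y chromosome, both differed: Xist read 11.52, 11.53 and 11.56 in HDAC2 KO and 12.03, 12.04 and 11.99 in control, and Kdm5d read 7.71, 7.36 and 7.84 in HDAC2 KO and 6.96, 7.02 and 6.90 in control. Xist, Kdm5d and Eif2s3y, also on the Y chromosome, each read above 6.66, the level of the signal filter used below, on every array. Uty, another gene of the Y chromosome, read below it on every array: 6.22, 6.09 and 6.32 in HDAC2 KO and 6.02, 5.87 and 5.56 in control. That level is the 40th percentile of gene means and does not mark presence or absence of a transcript. The labels give 1 mouse for each array, and whether an array held RNA of both sexes was not tested. The part of sex in the results below was not tested.

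Of the 48 genes, 44 passed the signal filter, 23 of the large and 21 of the small subunit. Rpl12, Rpl39l, Rpl3l and Rps16 lay below it, since their only probe sets with 1 symbol read 6.55, 4.13, 3.61 and 3.59 on average. Among the 44 genes, 2 were called (4.55%), against 17.9% of all genes tested, and both were lower in HDAC2 KO: Rpl7l1 in the large subunit and Rps25 in the small subunit. None was called higher in limma, and Rps4l was the one member with a higher value at an unadjusted p under 0.05, among 4 members at that level in either direction. The differences leaned to 1 side, however: 38 of the 44 were below 0 (86.4%), 21 of 23 in the large and 17 of 21 in the small subunit, against 48.6% of all genes. The median difference was -0.031 for large subunit genes and -0.035 for small subunit genes, where the median of all genes was 0.003. On a linear scale these medians are -2.14% and -2.39%.

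The intervals below are those of the probe set that stands for each gene, and other probe sets of a gene can differ from it, as they did for Rps9 and Rpl7l1. The 95% confidence interval lay within 1.25-fold of no change for 41 of 44 members, 22 of the large and 19 of the small subunit, and left this range for Rpl37, Rps25 and Rps4l. Of all 10916 genes tested, 9566 had an interval within this range, as did 124 of the 128 other genes with a mean signal of 13 or more. A difference within 0.1 of 0 was seen for 38 members and for 7243 of all 10916 genes. In 17 members all HDAC2 KO arrays lay below all control arrays, 8 of the large and 9 of the small subunit, where 17.7% of all genes did so. In 3 members, Rps2, Rps4l and Rps6, all HDAC2 KO arrays lay above all control arrays, where 19.9% of all genes did. The groups overlapped in the remaining 24 members. With 3 arrays a group, an exact permutation test of 1 gene cannot give a p under 0.1.

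**Figure D1:**
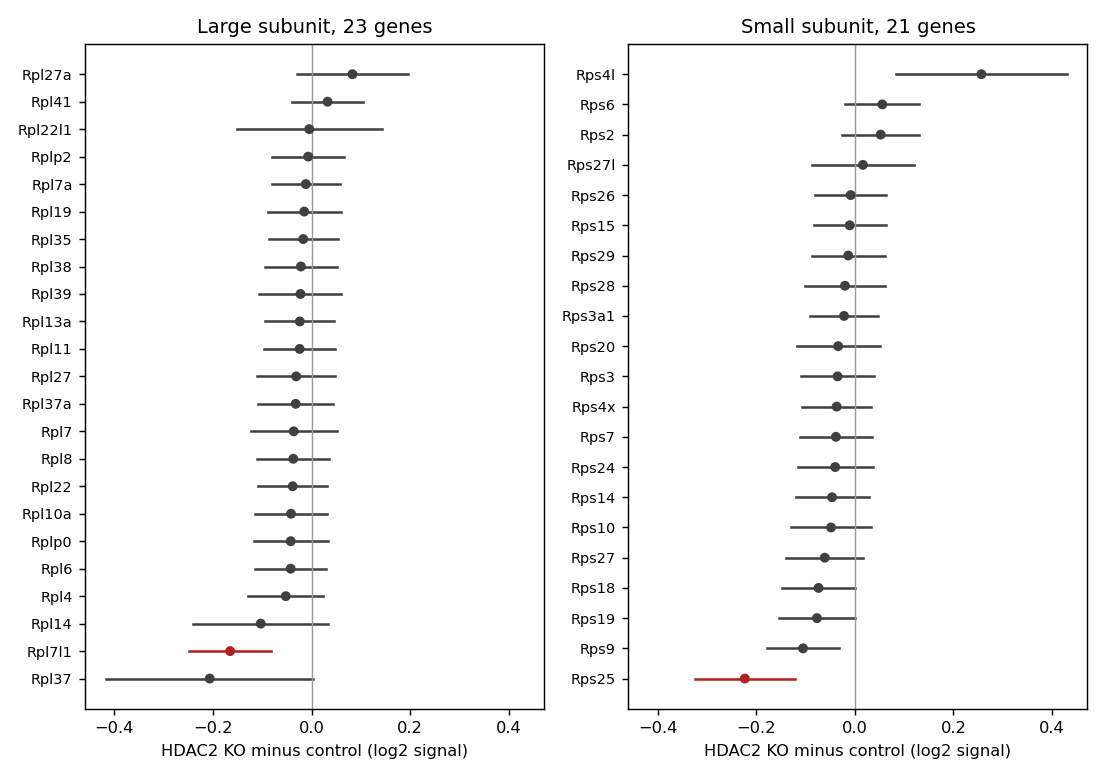
Difference between HDAC2 KO and control (log2 signal, horizontal axis) for the 23 large subunit genes (left) and 21 small subunit genes (right), each gene on its own row; points are limma estimates, lines their 95% confidence intervals, red marks an adjusted p under 0.05. Most estimates sit just left of 0, and only Rpl7l1 and Rps25 are red.

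The lean was visible on the arrays themselves. When each gene was set against its own mean over the 6 arrays, the median deviation of the large subunit genes was -0.0065, -0.030 and -0.0038 on the HDAC2 KO arrays and 0.024, 0.0053 and 0.0048 on the control arrays. For the small subunit genes it was -0.0070, -0.012 and -0.014 in HDAC2 KO and 0.016, 0.012 and 0.016 in control. In both subunits every HDAC2 KO array lay below every control array, and in the large subunit the lowest value was that of HDAC2 KO replicate 2. This array gave the lowest HDAC2 KO value in 24 of the 44 members. Without it the median difference was -0.024 in the large and -0.025 in the small subunit. These medians are descriptions, since genes of 1 array are not independent and the values of an array share its normalization.

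**Figure D2:**
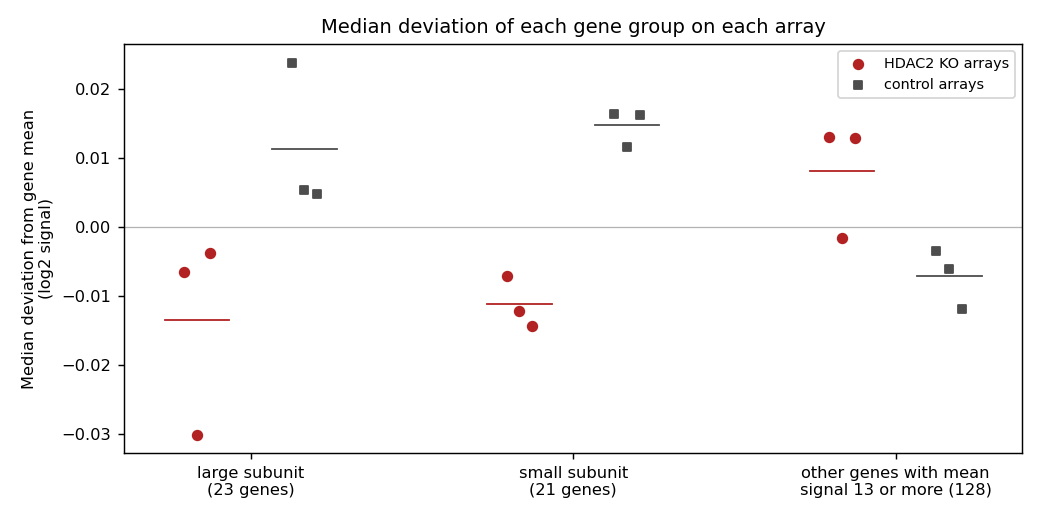
Median deviation from each gene's mean over the 6 arrays (log2 signal, vertical axis) for large subunit genes, small subunit genes and other genes with a mean signal of 13 or more; red circles are HDAC2 KO arrays, grey squares control arrays, and lines the means of 3 arrays. For both subunits the HDAC2 KO arrays lie below 0 and the control arrays above it, within about 0.03, while 2 of the 3 HDAC2 KO arrays lie above 0 for the other genes.

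Most members sit high on the array's scale. A mean signal of 13 or more was found for 33 members, the deposited values reaching 14.6 at most, and these 33 had a median difference of -0.034, with 31 below 0 and 0 called in limma (1 at an unadjusted p under 0.05). The other 128 genes with a mean of 13 or more had a median of 0.018, 45 of them (35.2%) below 0, and 20 were called, 12 higher and 8 lower. The share of the 33 members below 0 was 93.9%. With an intensity trend and robust variances, Rps9, Rps18 and Rps19 of the 33 were called lower (limma adjusted p = 0.00132, 0.0149 and 0.0212). That fit called 2284 of 10916 genes. Whether a probe set so bright follows its RNA in proportion was not tested. This comparison was chosen after the values were seen.

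**Figure D3:**
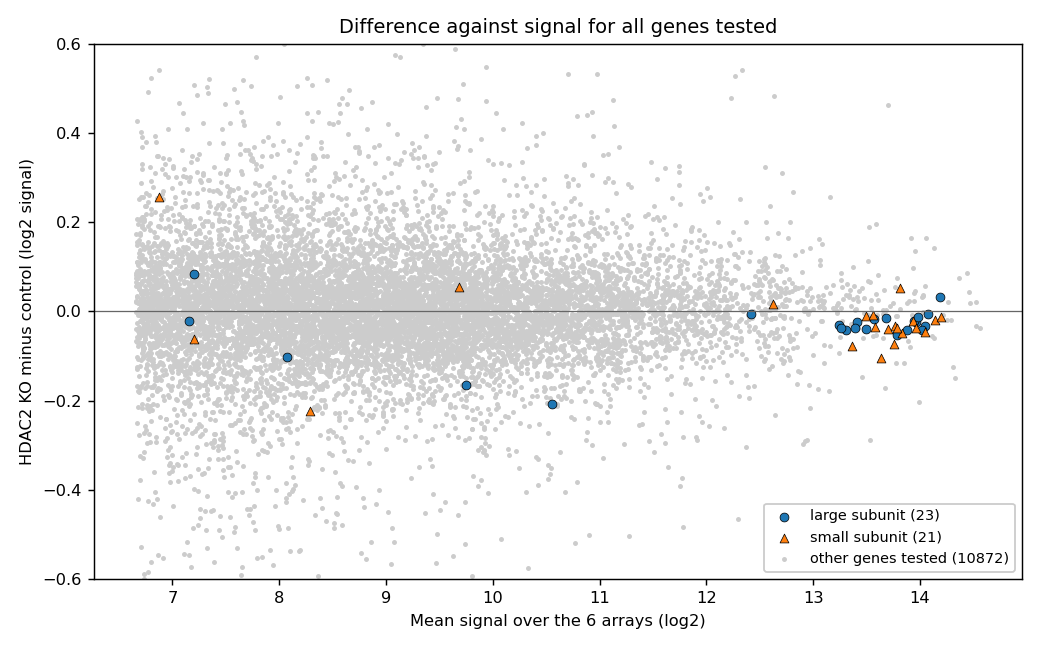
Difference between HDAC2 KO and control (log2 signal, vertical axis) against mean signal over the 6 arrays (log2, horizontal axis) for 23 large subunit genes (blue circles), 21 small subunit genes (orange triangles) and the other genes tested (grey); 156 other genes lie outside the plotted range of 0.6 on either side of 0. Members crowd between 13 and 14.2 just below 0, and those far from 0 have lower signals.

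In the large subunit, Rpl7l1 was the called gene. It is a paralog of Rpl7, and its yeast relative Rlp7 acts in the assembly of the large subunit. Its probe set of highest signal, 1452049_at, read 9.66, 9.62 and 9.71 in HDAC2 KO and 9.83, 9.85 and 9.81 in control, a difference of -0.17 (SE 0.036, limma adjusted p = 0.0162) or 1.12-fold lower. All 3 HDAC2 KO arrays were below the lowest control array. Leaving out an array took the adjusted p over the threshold in 3 of 6 cases: it was 0.0675 and 0.0637 when control replicate 1 or 2 was dropped and 0.0591 when HDAC2 KO replicate 1 was. With no signal filter it was 0.0575. Rpl37, a zinc-binding protein of the large subunit, had as large a difference, -0.21 (SE 0.091, adjusted p = 0.164), and was not called. It read 10.46, 10.26 and 10.62 in HDAC2 KO and 10.74, 10.53 and 10.69 in control, so that the groups overlapped while each HDAC2 KO array was below the control array of its number. With the replicate number as a block its adjusted p was 0.0446, and the count of called large subunit genes rose to 2. Leaving out HDAC2 KO replicate 3 also gave 2, with an adjusted p of 0.0444 for Rpl37 at -0.29, whereas without HDAC2 KO replicate 2 its difference was -0.11 (adjusted p = 0.310). These values of Rpl37 are those of 1438291_x_at, with a mean signal of 10.55. Brighter probe sets that name Rpl37 beside other genes, 1453729_a_at (mean 13.89) and 1434872_x_at (13.27), differed by -0.007 and -0.094. A dimmer one, 1450838_x_at (7.89), differed by 0.032, and none of them was called. Rpl14, at -0.10 (SE 0.059), and Rpl27a, at 0.083 (SE 0.049), had overlapping groups.

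The functional centres of the large subunit moved little. In the stalk, which recruits the elongation factors, Rplp0, its base, read 14.03, 13.97 and 13.99 in HDAC2 KO and 14.05, 14.03 and 14.03 in control, a difference of -0.042 (SE 0.032, adjusted p = 0.420). Rplp2, carried on that base, read 14.09, 14.04 and 14.08 in HDAC2 KO and 14.09, 14.07 and 14.07 in control, a difference of -0.007 (SE 0.032). Rplp0 separated the groups and Rplp2 did not, and neither was called. Rpl11, which together with Rpl5 and 5S rRNA can bind the p53 regulator Mdm2, differed by -0.024 (SE 0.031) with overlapping groups. At the rim of the exit tunnel, where chaperones and targeting factors dock, Rpl19, Rpl35, Rpl38 and Rpl39 lay between -0.023 and -0.015. Rpl39 stands here on a probe set with a mean of 7.16. A brighter one that names it beside other genes, 1450840_a_at (mean 14.13), differed by -0.058. Rpl10a, which forms the mobile L1 stalk beside the tRNA exit site, differed by -0.042 (SE 0.032). Rpl41, the smallest ribosomal protein, differed by 0.032 (SE 0.031) and Rpl27a was the other large subunit gene above 0. Apart from the paralog Rpl22l1, the remaining genes of the subunit, among them Rpl4 and Rpl7a, lay between -0.052 and -0.012.

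In the small subunit, Rps25 was the called gene. It sits in the head of the subunit and is known for its part in initiation at certain viral internal entry sites. Its probe set 1430978_at, the only one with this symbol alone, read 8.19, 8.14 and 8.20 in HDAC2 KO and 8.34, 8.48 and 8.39 in control, a difference of -0.22 (SE 0.044, limma adjusted p = 0.0108) or 1.17-fold lower. The groups did not overlap, and the call was kept without each array in turn (adjusted p between 0.0183 and 0.0358). Among 16 other fits it was lost in 1, the test of all probe sets singly (adjusted p = 0.0795), and at a threshold of 0.01 it was lost as well. A brighter probe set that names Rps25 beside other genes, 1451068_s_at, read 13.24, 13.17 and 13.17 in HDAC2 KO and 13.27, 13.26 and 13.27 in control, a difference of -0.077 (SE 0.046, adjusted p = 0.483 over probe sets), which was not called. The list of head proteins leaves out Rps3 and Rps28, which are described below with the mRNA channel. All 7 tested proteins of that list were below 0, with a median of -0.048, beside 17 of 21 and -0.035 for the small subunit. Rps18 and Rps19, a gene mutated in Diamond-Blackfan anaemia, were among them and read lower on every HDAC2 KO array than on every control array. Rps18 read 13.74, 13.71 and 13.70 in HDAC2 KO and 13.81, 13.79 and 13.77 in control, a difference of -0.074 (SE 0.032, adjusted p = 0.164). Rps19 read 13.34, 13.34 and 13.29 in HDAC2 KO and 13.41, 13.41 and 13.37 in control, a difference of -0.077 (SE 0.033, adjusted p = 0.160). A dim probe set that names Rps19 beside other genes, 1460442_at (mean 6.54), went the other way. It differed by 0.22 (limma adjusted p = 0.143 over probe sets), with all HDAC2 KO arrays above all control arrays. With an intensity trend and robust variances, Rps18 and Rps19 were called lower (adjusted p = 0.0149 and 0.0212).

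Around the mRNA channel the signs were mixed. Rps2, at the mRNA entry, read 13.81, 13.86 and 13.85 in HDAC2 KO and 13.80, 13.80 and 13.75 in control, a difference of 0.052 (SE 0.034, adjusted p = 0.337). Its neighbour Rps3 differed by -0.035 (SE 0.032), with all HDAC2 KO arrays below all control arrays. At the mRNA exit, Rps14, Rps26 and Rps28 differed by -0.046, -0.008 and -0.020 and none was called. The direction of Rps28 depended on the probe set. Its probe sets 1454778_x_at (mean 13.83) and 1423763_x_at (14.06) differed by 0.055 and 0.034. In both, all HDAC2 KO arrays lay above all control arrays, and neither was called. Rps6, the substrate of the S6 kinases, read 9.71, 9.72 and 9.70 in HDAC2 KO and 9.63, 9.65 and 9.69 in control, a difference of 0.056 (SE 0.032, adjusted p = 0.289). Its dimmer probe set, 1453466_at, differed by -0.035, and all 9 probe sets that name Rps6 beside other genes were below 0, among them the bright 1434377_x_at (-0.050). Rps29, a zinc-binding protein of the head, differed by -0.013 with overlapping groups. Rps9, Rps24, Rps18, Rps19, Rpl37, Rps2, Rps6 and other members named without a call, a stalk or paralog role were picked after their values were seen.

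Paralogs were read apart from their parent genes where the probe sets allowed it. Rps4l, a copy of the X-linked Rps4x on another chromosome, read 6.93, 7.08 and 7.00 in HDAC2 KO and 6.76, 6.89 and 6.59 in control, just above the filter level of 6.66. The difference was 0.26 (SE 0.075, limma adjusted p = 0.0502), the highest of the 44 members, and the groups did not overlap. It was called in 7 of the other fits. A block for the replicate number gave an adjusted p of 0.0321 and dropping control replicate 2 gave 0.0256, and in both the count of called small subunit genes was 2. Rps4x itself read 13.96, 13.94 and 13.94 in HDAC2 KO and 13.99, 13.98 and 13.98 in control, a difference of -0.037 (SE 0.030). The other X-linked member, Rpl39, differed by -0.023. Rpl7, the parent of Rpl7l1, differed by -0.036 (SE 0.038). Rpl22, needed for T cell development in mice, differed by -0.038 and its paralog Rpl22l1 by -0.005 (SE 0.064). Rps27 differed by -0.061 (SE 0.034) and Rps27l, a p53 target in human cells, by 0.017 (SE 0.045), and the groups overlapped in both. Of the 9 paralogs and parents tested, 1 was called, and their median was -0.036.

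Several probe sets for 1 gene gave a check within the arrays. In the test of all 45037 probe sets singly, 1712 were called (3.80%), among them 3 of the 103 member probe sets (2.91%), 2 higher and 1 lower in HDAC2 KO. Of the 103, 84 were below 0. Among the 20 genes with more than 1 probe set above the filter level, the differences spanned less than 0.1 in 15, with a median span of 0.051. Over all 23 genes with several probe sets, dim ones included, the median span was 0.091, 10 genes spanned 0.1 or more and 10 had differences of both signs. For Rps14 both probe sets differed by -0.046, and for Rpl7 all 3 lay between -0.058 and -0.033. Many of these probe sets share sequence with other transcripts: 71 of the 103 are of the types _s_at, _x_at or _a_at, whose probes can match more than 1 transcript, so they are not independent measurements of a gene.

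Rps9, a small subunit protein near the mRNA entry, was the sharpest disagreement. Its brightest probe set, 1433689_s_at, read 13.61, 13.57 and 13.58 in HDAC2 KO and 13.68, 13.68 and 13.71 in control, a difference of -0.10 (SE 0.032, limma adjusted p = 0.0556 in the fit over genes). With an intensity trend and robust variances its adjusted p was 0.00132. A second one, 1434624_x_at, read 11.66, 11.20 and 11.94 in HDAC2 KO and 8.27, 9.71 and 8.51 in control, a difference of 2.77 (SE 0.37, adjusted p = 0.00725 in the fit over probe sets) or 6.81-fold higher. Control replicate 2 stood above the other control arrays by more than 1 log2 unit and HDAC2 KO replicate 2 was the lowest of its group, yet the groups did not overlap. The call on this probe set was kept without each array in turn (adjusted p between 0.00108 and 0.0471) and was lost with an intensity trend and robust variances (0.0508). The third, 1426958_at, read 5.24, 5.19 and 5.11 in HDAC2 KO and 5.22, 5.10 and 5.37 in control, with overlapping groups. Which transcripts the probes of 1434624_x_at bind was not analysed here.

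Rpl7l1 showed the same kind of split on a smaller scale. Beside the called probe set described above, 1439780_at read 7.30, 7.28 and 7.15 in HDAC2 KO and 6.99, 6.88 and 6.88 in control, a difference of 0.33 (SE 0.061, adjusted p = 0.0289 over probe sets), and 1426386_at differed by -0.049 (SE 0.045). In that same fit over probe sets 1452049_at was not called (adjusted p = 0.130). For 1439780_at the adjusted p was 0.0574 with the replicate number as a block, 0.0638 to 0.123 when any 1 array other than HDAC2 KO replicate 3 was dropped, and 0.0310 when that array was. The direction of Rpl7l1 therefore depended on the probe set.

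Rps24, another gene of Diamond-Blackfan anaemia, had 6 probe sets and all were below 0. The called one, 1455195_at, has a mean signal of 6.64, below the filter level of 6.66, and read 6.51, 6.37 and 6.56 in HDAC2 KO and 6.84, 6.76 and 6.81 in control, a difference of -0.32 (SE 0.063, adjusted p = 0.0353). The brightest, 1436064_x_at, read 13.69, 13.65 and 13.71 in HDAC2 KO and 13.70, 13.73 and 13.73 in control, a difference of -0.040 (SE 0.045). The other 4 lay between -0.13 and -0.024 and were not called. With the replicate number as a block the adjusted p of 1455195_at was 0.0631 and 1 of the 103 member probe sets, that of Rps9, remained called. When any 1 array other than HDAC2 KO replicate 3 was dropped, the adjusted p of 1455195_at lay between 0.0530 and 0.146. For Rps20, both dim probe sets were above 0 (0.21 and 0.22, adjusted p = 0.248 and 0.295) and both bright ones below it (-0.034 and -0.069). Rpl22 had 3 probe sets below 0, of which 1448398_s_at read 9.67, 9.65 and 9.61 in HDAC2 KO and 9.82, 9.84 and 9.82 in control (-0.18, adjusted p = 0.0809). Rpl13a had 4 below 0, from -0.17 to -0.024, with groups that did not overlap in any of them. Of all 45037 probe sets, 5097 had every HDAC2 KO array below every control array. Probe sets that name Rpl13a beside other genes, 1435873_a_at (mean 13.95) and 1422115_a_at (5.27), differed by -0.031 and -0.020 with overlapping groups.

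**Figure D4:**
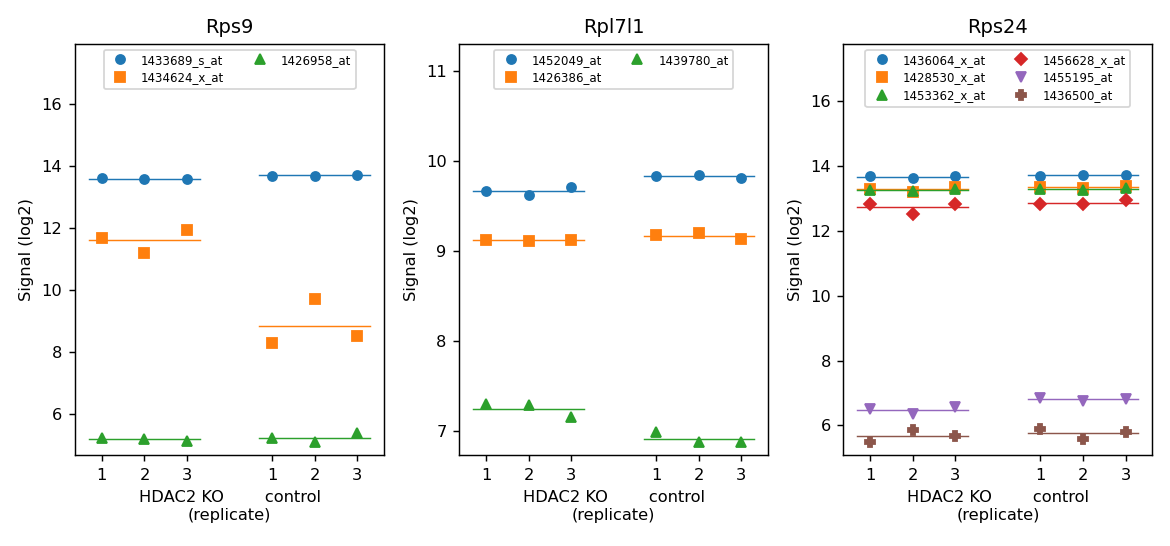
Signal (log2, vertical axis) of every probe set of Rps9, Rpl7l1 and Rps24 on the 3 HDAC2 KO arrays (left in each panel) and the 3 control arrays (right); each symbol is a probe set and lines are group means. The Rps9 probe set 1434624_x_at lies between 11.20 and 11.94 in HDAC2 KO and between 8.27 and 9.71 in control, while the group means of the other probe sets of the 3 genes differ by at most 0.33.

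The 110 probe sets that name a member gene beside other genes had the same lean. Of these, 95 were below 0, with a median of -0.034, and 3 were called (2.73%), against 3.80% of all probe sets. A probe set naming Rpl17 read 8.98, 8.58 and 9.08 in HDAC2 KO and 9.70, 9.67 and 9.60 in control, a difference of -0.77 (SE 0.12, adjusted p = 0.0157). A probe set naming Rps6 differed by -0.35 (adjusted p = 0.0188) at a signal of 4.46 in HDAC2 KO and 4.81 in control, and a probe set naming Rpl21 by 0.46 (adjusted p = 0.0334). These cannot be assigned to 1 gene. Rps27, Rpl14 and Rpl27a, like Rpl39, stand on dim probe sets (means of 7.20, 8.08 and 7.20). Brighter ones that name them beside other genes differed by -0.056 for Rps27, -0.049 to -0.010 for Rpl14 and 0.030 for Rpl27a. Of the cytosolic ribosome genes outside the symbol rule, Fau, which encodes a small subunit protein fused to a ubiquitin-like one, differed by -0.061 (SE 0.037) and Rpsa, the laminin receptor homologue of the small subunit, by 0.003 (SE 0.042).

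The start sequence was set against the differences. The 21 tested members with a pyrimidine run at a start had a median of -0.022 (from -0.10 to 0.083), and the 17 without it a median of -0.035 (from -0.22 to 0.032). The ranges overlapped, and both called members, Rpl7l1 and Rps25, were among those without the run in the window shown above. A run in the window does not show that the mRNA starts there, and polysome association was not measured.

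The rest of the pathway was read from lists of genes that make, assemble or work with ribosomes, beside the 17.9% of all genes that were called. Ribosomal proteins of mitochondria, which serve the separate ribosome of that organelle, had a median of 0.017 over 76 genes, with 26 below 0, and 0 were called in limma (9 at an unadjusted p under 0.05). Of 15 subunits and factors of RNA polymerase I, which transcribes rRNA, 0 were called (2 at an unadjusted p under 0.05), and the median was -0.049. Among 35 factors of small subunit assembly, 3 were higher and 2 lower, with a median of -0.025. Of these, Utp18, lower, lost its call without control replicate 1 or 2 (adjusted p of 0.0964 and 0.0852) and Utp20, higher, without HDAC2 KO replicate 1 (0.0530). Krr1, a factor of early small subunit processing, read 9.82, 9.76 and 9.91 in HDAC2 KO and 9.47, 9.41 and 9.46 in control, a rise of 0.38 (SE 0.044, adjusted p = 0.000826), and was called in all 16 alternatives, at 0.19 with the mean of its probe sets. Among 40 factors of large subunit assembly, 1 was higher and 2 lower, with a median of -0.037. The lower ones, Nsa2 and Pa2g4, each lost the call when 1 array was dropped in 5 of 6 cases (adjusted p of 0.0689 to 0.159 for Nsa2 and 0.0626 to 0.158 for Pa2g4), the exceptions being HDAC2 KO replicate 1 for Nsa2 and HDAC2 KO replicate 2 for Pa2g4. The 1 that was higher was Eif6, which keeps the subunits apart, at 0.16 (SE 0.035, adjusted p = 0.0174; 0.35 without probe types s, x and a and 0.25 with the mean of probe sets), with an adjusted p of 0.0689 and 0.0564 when control replicate 1 or 3 was dropped and 0.0653 when HDAC2 KO replicate 1 was. Of 9 proteins of snoRNA particles, which guide rRNA modification, 1 was lower, Naf1, whose call was lost without any control array or HDAC2 KO replicate 1 (adjusted p of 0.0594 to 0.105).

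Host genes of small nucleolar RNAs, whose spliced exons are themselves TOP transcripts in several cases, had 1 higher and 3 lower of 9. The list was split, with a median of -0.007, 5 genes below 0 and 4 above it. The gene called higher, Snhg5, lost its call without any 1 array (adjusted p of 0.0502 to 0.103). Zfas1 read 9.16, 9.08 and 9.18 in HDAC2 KO and 9.49, 9.53 and 9.44 in control, a difference of -0.35 (SE 0.041, adjusted p = 0.000937), and was called in all 16 alternatives. Gas5 read 11.32, 11.33 and 11.29 in HDAC2 KO and 11.61, 11.64 and 11.57 in control, a difference of -0.29 (SE 0.034, adjusted p = 0.000952). Without probe sets of the types _s_at, _x_at and _a_at another Gas5 probe set gave 0.054, and the mean of its probe sets gave -0.17. On the probe sets that stand for the genes, Zfas1 and Gas5 both fell by more than any tested ribosomal protein gene. Among 22 initiation factors 2 were higher and 1 lower, with a median of -0.051. The higher ones were Eif2s2, whose call was lost without any 1 array (adjusted p of 0.0593 to 0.132), and Eif3c, whose call was lost without control replicate 1 or 2 (0.0627 and 0.0544). The lower one was the X-linked Eif2s3x, at -0.16 (SE 0.041, adjusted p = 0.0297), with an adjusted p of 0.0592 to 0.0990 when any control array or HDAC2 KO replicate 1 was dropped, and the difference in Xist given above stands beside it. Of 13 elongation factors and other TOP mRNAs, 0 were called (1 at an unadjusted p under 0.05), with a median of -0.035. Of 16 regulators of TOP mRNAs and mTORC1, 1 was called: Tia1, which binds TOP mRNAs under stress, at -0.21 (SE 0.035, adjusted p = 0.00494). With the mean of its probe sets Tia1 was at -0.076 (adjusted p = 0.177). In the Myc network, which drives ribosomal genes in many tissues, 2 of 10 genes were called. Myc differed by -0.23 (SE 0.049, adjusted p = 0.0154, or 0.0690 with control replicate 1 dropped) and Mxd1, a repressor of its targets, by 0.25 (SE 0.049, adjusted p = 0.00948).

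The cells that gave the RNA differed between the groups as far as marker signals show. Summed on the linear scale, the 12 markers of B and plasma cells reached 9005 to 9913 in HDAC2 KO and 12688 to 12849 in control, with 8 of 9 tested lower. The 13 T and NK cell markers summed to 929 to 990 in HDAC2 KO and 1857 to 1875 in control, with 4 of 4 tested lower and 9 below the signal filter. The 8 adipocyte markers summed to 2877 to 3052 in HDAC2 KO and 12885 to 13605 in control, with 5 of 6 tested lower and 1 higher. The 15 epithelial markers summed to 178515 to 184251 in HDAC2 KO and 168919 to 170528 in control, with 4 higher and 0 lower, and the 8 smooth muscle markers to 49215 to 50135 in HDAC2 KO and 45191 to 45899 in control, with 3 higher and 0 lower. Macrophage and dendritic cell markers had 1 higher and 2 lower of 8. Fewer cells of a type and less RNA per cell cannot be told apart in these samples, and the part of these cells in the ribosomal protein values was not tested.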

How the data were processed

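RNA of 6 colon samples, 3 of HDAC2 KO and 3 of control mice, was hybridised to 1 Affymetrix mouse array each. The authors produced the deposited log2 values with RMA (version not given), per the submitters' processing notes. Their range (2.39 to 14.6) and array medians (6.17 to 6.21) are those of a log2 scale. Quantile normalization gives the arrays 1 distribution, so a change in total mRNA cannot be seen, and a set of very abundant mRNAs is measured relative to all others. At low signal, differences are compressed. Hybridisation batches were not tested, as no scan dates were used.

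Gene names came from the platform annotation of GEO: 34945 probe sets had 1 symbol, 932 several and 9160 none listed. By Entrez identifier 34741 were matched to RefSeq GRCm38.p6, and 0 symbols changed. Each gene was represented by its probe set of highest mean, and the 10916 genes at or above the 40th percentile of gene means (6.66) were tested with limma 3.58.1 in R 4.3.3 (lmFit, eBayes, group as sole term) and Benjamini-Hochberg adjustment over all of them; a call is an adjusted p under 0.05. All 45037 probe sets were also tested singly. Fits were tested on simulated data with known changes. The fit over genes recovered 50% of log2 changes of 0.2 and 68% of those of 0.3. The fit over probe sets recovered 0% and 4%, so a missing call there does not exclude a change of that size. Differences are HDAC2 KO minus control. The source labels number the mice, 1 for each array, and with 3 arrays a group the estimates are imprecise. The limma p-values draw on the spread of a gene between these arrays and on a variance shared across genes. For bright members of little spread the SE can exceed their own spread. Rps3a1 had standard deviations of 0.0032 in HDAC2 KO and 0.0058 in control, with an SE of 0.030. For Rpl22 they were 0.0051 and 0.012, with an SE of 0.030. A missing call of such a member therefore does not rest on its own arrays alone.

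Members and the 26 lists were chosen with earlier results of these data known, so no list is independent evidence of its direction. The rule for names took called members, stalk, 5S and paralog lists, members with probe sets called in opposite directions (0 found), the highest and lowest signal of each subunit, and up to 3 members of smallest p in other lists.

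Same-numbered arrays of the 2 groups correlated in their deviations from group means over genes (r of 0.21, 0.34 and 0.20) against -0.37 to 0.18 for other pairs, so the numbers were taken to pair the arrays. This pairing rests on the correlations, not on a label, and enters only the alternative with the replicate number as a block. Deviations from a mean of 3 arrays sum to 0, so the values of the other pairs depend in part on those of same-numbered arrays. For HDAC2 KO replicate 3, r was 0.20 with control replicate 3 and 0.18 with control replicate 1. Other alternatives changed the filter, the summary of probe sets, the normalization, the variance model, array weights, the probe types and the threshold, or left out each array.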

Additional observations from a re-analysis of the deposited data

How the results depend on the processing

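The median difference stayed below 0 in all 16 settings, the reported one included, from -0.042 to -0.021 in the large and from -0.077 to -0.020 in the small subunit; for the small subunit it was -0.022 with probe sets averaged per gene, -0.020 after a further quantile normalization, -0.027 with array weights, -0.077 without probe types s, x and a, and -0.035 to -0.025 with 1 array left out. Counts of calls moved more. With an intensity trend and robust variances, 4 of the small subunit calls were lower and 1 higher. Of the member probe set calls in that setting, 8 were lower and 1 higher. Of large subunit genes 0 were called without the signal filter, with the mean of probe sets or at an adjusted p under 0.01, 2 with array weights or the replicate number as a block, and 0 to 2 with 1 array left out. Of small subunit genes 2 were called with a filter at the 60th percentile, after centring, with the block or without probe types s, x and a, 3 with the mean of probe sets, a further quantile normalization, array weights or a threshold of 0.10, 5 with an intensity trend and robust variances, 0 at 0.01, and 1 to 2 with 1 array left out. Of member probe sets 6 were called with a filter at the 40th percentile, 5 with one at the 60th percentile or at 0.10, 9 with an intensity trend and robust variances, 1 with the block or at 0.01, and 1 to 3 with 1 array left out. Of all genes 3506 were called with array weights, 954 at 0.01, and 1130 to 2107 with 1 array left out. Averaging the probe sets of a gene reversed Rpl7l1 (0.039), Rps9 (0.87) and Eif3c (-0.0099); leaving out probe types s, x and a reversed Eif3c (-0.023) and Gas5 (0.054), by which another probe set stands for the gene. Beyond the calls given beside the results, the block changed no call of a member. Other causes were not tested. Of the 103 member probe sets 19 lay below the filter level, where signal over background limits what can be measured.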
